A study of Mus musculus with 12 samples.

Results

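Gene expression was compared between Ly6C and Ly6G cells from tumors of mice, using 12266 genes measured by bulk RNA sequencing in 3 Ly6C tumor and 3 Ly6G tumor libraries. A gene entered the comparison if it had an Ensembl identifier and reached 1 FPKM (a fragment count scaled by the authors to gene length and library size) in at least 3 of these 6 libraries. Of 54104 identifiers in the deposited matrix, 12266 met this rule, and 10957 of them reached 1 FPKM in all 6 libraries. Just inside the limit lay Bcl7a, Smarca2 and Zfp469, with third-highest values of 1.0024, 1.0027 and 1.0029 FPKM, and just outside it lay Snx29, Nr6a1 and Oxsm at 0.9999, 0.9994 and 0.9993. GENCODE M21 named 12258 of the genes, and 10510 were protein coding.

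The series compared 2 kinds of myeloid-derived suppressor cell, the polymorphonuclear (PMN-MDSCs) and the monocytic (M-MDSCs), from mouse spleen and tumor in 12 libraries, of which the 6 spleen libraries enter here only as a reference. Each label held the name Ly6C or Ly6G, the tissue and a number from 1 to 3. The sorting gate, tumor model, strain, age and treatment were not given, and no label said that the numbered libraries came from separate animals. The p-values therefore measure the spread between these libraries, which may be technical.

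Myeloid-derived suppressor cells are immature neutrophils and monocytes that expand in tumor-bearing hosts and restrain T cells. Ly6G is a surface protein of mouse neutrophils and marks the polymorphonuclear type, whereas the monocytic type lacks Ly6G and carries much Ly6C on its surface. Both act through enzymes that consume arginine (arginase and inducible nitric oxide synthase), the checkpoint ligand PD-L1, prostaglandins and reactive oxygen, and both secrete chemokines that recruit more myeloid cells.

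In these tumor libraries all 15 listed neutrophil genes, 17 of 23 interferon-response genes, 10 of 17 immunosuppressive effectors, 8 of 18 cytokine genes and 5 of 16 chemokine genes were higher in Ly6G. On the Ly6C side stood 28 of 30 ribosomal protein genes, 22 of 27 nuclear respiratory chain genes and, among chemokines, Ccl7, all by smaller steps. A gene passed when its Benjamini-Hochberg adjusted p over the 12266 genes, from limma on log2(FPKM + 1), was under 0.05, and each difference below is that of the log2 values, Ly6C minus Ly6G, with its standard error (n = 3 per label). It understates the change of genes of low level. In all, 2807 genes passed (22.9% of those tested), of which 1512 (12.3%) were higher in Ly6C and 1295 (10.6%) higher in Ly6G. Differences of at least 2-fold fell almost wholly on the Ly6G side, with 431 genes (3.51%) against 9 (0.0734%) higher in Ly6C. The 3 libraries of one label lay wholly above those of the other for 3250 genes higher in Ly6C (26.5%) and 2118 higher in Ly6G (17.3%). The median difference was 0.07 over all genes, 0.48 over those that passed on the Ly6C side and -0.76 over those on the Ly6G side.

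FPKM is relative to the whole library, and the libraries of the 2 labels held different summed levels of leukocyte genes, so the lists below are given on more than 1 scale. The plain values, a common sum (TPM scale) and a common sum without mitochondrial genes gave 1512 and 1295, 253 and 1393, and 426 and 1761 genes higher in Ly6C and in Ly6G, and median-of-ratios factors gave 1033 and 1503. Dividing each library by the geometric mean of FPKM + 1 of 20 pan-leukocyte genes is called the pan-leukocyte scale below. It moved the median difference of all genes from 0.07 to 0.94, and that of the 20 genes from -1.14 to -0.17. On it 7269 genes were higher in Ly6C (59.3%) and 36 higher in Ly6G (0.293%). The division multiplies every gene of a library by the same factor, but the log2(FPKM + 1) of low genes moves less. The difference of Krt8 went from 0.49 to 1.59, and that of H1fx, of low level, from 0.998 to 1.38. A list's count on the pan-leukocyte scale below is to be read against the 59.3% and 0.293% of all genes. Its distance from the median of all genes can change through level alone. On that scale 25 of the 1295 genes that passed on the Ly6G side still did, 0 passed on the Ly6C side and 1270 did not pass, whereas all 1512 genes of the Ly6C side passed on that side again. The counts also rested on single libraries: leaving out 1 of the 6 gave 751 (without Ly6C tumor 3) to 2011 (without Ly6G tumor 1) passing genes, and 675 of the 2807 passed in each of these 6 fits. Leaving out both number 3 libraries left 61.

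**Figure D1:**
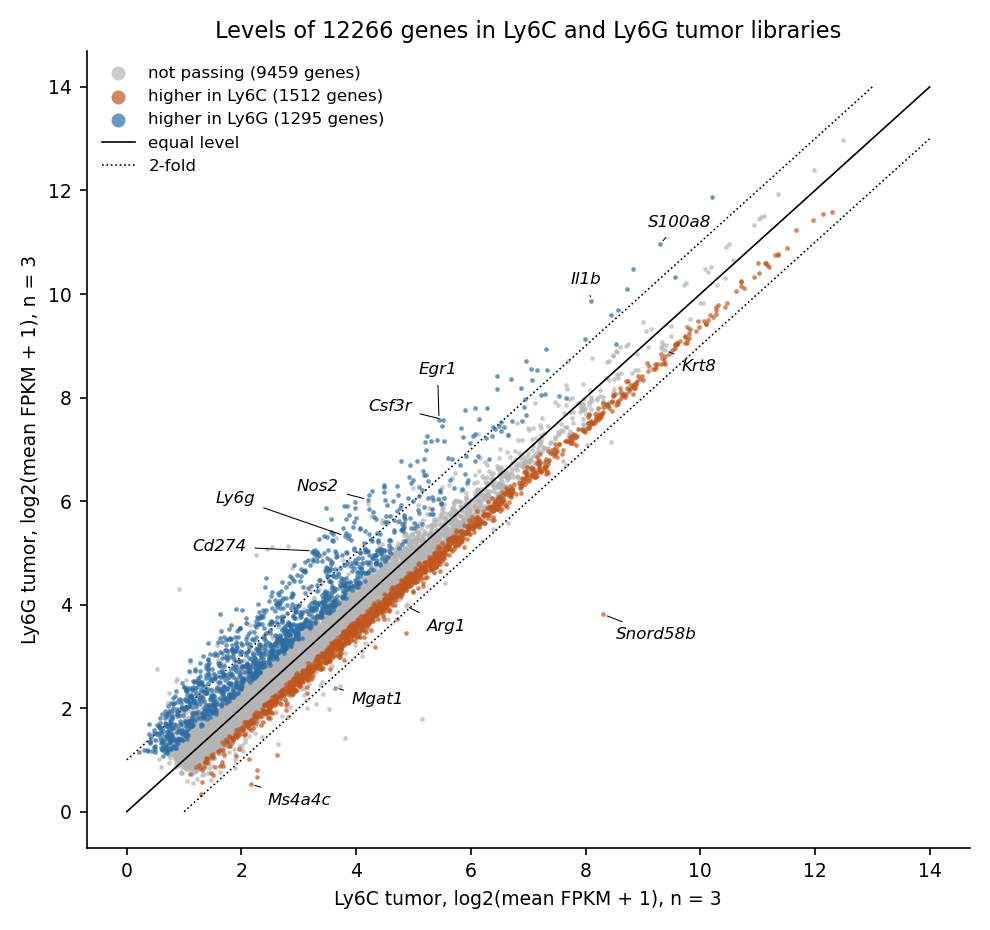
Mean level of each of the 12266 genes in Ly6C tumor (horizontal axis) and Ly6G tumor (vertical axis), as log2(mean FPKM + 1) of 3 libraries; the solid line marks equal levels, dotted lines a 2-fold difference, and colors the 1512 genes that passed higher in Ly6C and the 1295 higher in Ly6G. Genes beyond 2-fold lie mostly above the line, among them Il1b, Csf3r, Nos2 and Cd274, while Ms4a4c, Mgat1 and Snord58b lie below it.

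The 6 tumor libraries summed to 331681 to 388126 FPKM and held 11783 to 12337 genes at 1 FPKM or more. Fragment counts were not recovered from the values, so depth is unknown. Mitochondrially encoded genes took 4.17%, 2.83% and 7.37% of FPKM in Ly6C tumor 1 to 3 and 5.12%, 5.22% and 11.3% in Ly6G tumor 1 to 3, so number 3 was highest in both labels. Across genes, pairs of libraries had a Pearson's r of 0.977 to 0.981 within Ly6C, 0.969 to 0.978 within Ly6G and 0.927 to 0.968 between labels.

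The labels were checked first against the genes that name them. Ly6g, the neutrophil surface protein, had 13.3, 11.8 and 13.8 FPKM in Ly6C tumor 1 to 3 and 31.5, 54.1 and 31.6 in Ly6G tumor 1 to 3, and all values below are given in this order. The groups did not overlap, and Ly6g was 3.02-fold higher in Ly6G by the means (-1.48 ± 0.21, adjusted p = 0.0104). Ly6c1 had 67.5, 82.8 and 86.01 FPKM in Ly6C and 60.4, 64.7 and 44.8 in Ly6G, which did not overlap either, but its difference of 0.48 ± 0.16 did not pass (adjusted p = 0.0772). Ly6c2 had 6.63, 6.35 and 8.16 and 5.31, 7.797 and 6.98, with overlapping groups (0.07 ± 0.15, adjusted p = 0.763). Of 745 windows of 100 bases along the longest Ly6c1 coding transcript, 114 (15.3%) occurred unchanged in Ly6c2 and 0 in Ly6g, so reads of Ly6c1 and Ly6c2 can be exchanged and the split between them is uncertain. Ly6g was present in the Ly6C libraries and Ly6c1 in the Ly6G libraries, so neither RNA was confined to its label.

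Neutrophil genes separated the labels most clearly. All 15 listed neutrophil genes were higher in Ly6G, with a median difference of -1.66, and on the pan-leukocyte scale 0 higher in Ly6C and 2 higher in Ly6G passed. The count was 12 to 15 without any 1 library, lowest without Ly6G tumor 2. Csf3r, the receptor for the neutrophil growth factor G-CSF, was at 44.8 ± 14.3 FPKM in Ly6C and 189.7 ± 53.8 in Ly6G (SD, n = 3; -2.07 ± 0.30, adjusted p = 0.0107). By library it had 55.1, 28.5 and 50.9 in Ly6C and 129, 230.3 and 210.3 in Ly6G, with no overlap. Mxd1, a MYC antagonist of the MAX network, had 12.97, 8.92 and 8.38 and 30.8, 48.4 and 93.8 (-2.28 ± 0.38), with Ly6G tumor 3 far above the other Ly6G libraries. Il1r2, the decoy receptor for interleukin-1, had 51.2, 34.03 and 47.5 and 142, 210.4 and 167 (-1.95 ± 0.20). Csf3r and Mxd1 passed on the pan-leukocyte scale too, at -0.98 and -1.23.

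The calcium-binding alarmins S100a8 and S100a9 were the most abundant neutrophil genes. S100a8 had 631, 436 and 821 FPKM in Ly6C and 1272, 2518 and 2214 in Ly6G (-1.66 ± 0.32, adjusted p = 0.0159), and S100a9 had 1296, 753 and 1498 and 2334, 4861 and 4003 (-1.65 ± 0.34, adjusted p = 0.0188). Neither gene overlapped between labels, and Ly6C tumor 2 was lowest for both. S100a9 missed the threshold without Ly6G tumor 2 (adjusted p = 0.0513) or without Ly6G tumor 3 (0.0523). Cxcr2, the receptor by which neutrophils follow CXC chemokines, had 4.66, 2.804 and 4.105 and 9.44, 20.2 and 15.97 FPKM (-1.70 ± 0.27, adjusted p = 0.0122).

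Genes of the secondary and tertiary granules, the late-formed neutrophil stores of proteases and antimicrobial proteins, leaned to Ly6G. Of their differences 17 were negative and 1 positive, but not all passed. Of 18 measured, 9 were higher in Ly6G and 0 in Ly6C (median -1.33), against 1 higher in Ly6C and 1 higher in Ly6G on the pan-leukocyte scale. The collagenase gene Mmp8 had 18.3, 13.7 and 21.1 FPKM in Ly6C and 48.8, 56.7 and 64.7 in Ly6G (-1.64 ± 0.18, adjusted p = 0.00612), with no overlap. The gelatinase gene Mmp9 had 37.8, 19.3 and 40.6 and 69.4, 101 and 157 (-1.70 ± 0.36, adjusted p = 0.0202), which missed without Ly6G tumor 2 (adjusted p = 0.0531). Ltf, Ngp and Camp, genes of secondary granule proteins that are switched on early in neutrophil maturation, did not pass. Ltf had 6.42, 1.72 and 5.16 in Ly6C and 6.31, 80.1 and 11.1 in Ly6G, so a single library, Ly6G tumor 2, carried the high level. Of 9 listed primary granule genes 2 were measured, and neither passed.

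Monocyte and macrophage genes did not mirror the neutrophil genes. Of 13 measured monocyte genes 2 were higher in Ly6C and 1 in Ly6G (median 0.32), against 10 higher in Ly6C and 0 higher in Ly6G on the pan-leukocyte scale. The 2 were Ms4a4c and Ms4a6c, which code for 4-span membrane proteins of myeloid cells. Ms4a4c had 3.72, 2.47 and 4.27 FPKM in Ly6C and 0.243, 0.132 and 0.968 in Ly6G, 7.79-fold higher in Ly6C by the means (1.65 ± 0.25, adjusted p = 0.0112), and it passed in every fit without 1 library. Ms4a6c had 3.82, 2.21 and 4.13 and 0.895, 0.464 and 1.75 (1.13 ± 0.27, adjusted p = 0.0275), and missed without Ly6C tumor 1 or 3 or Ly6G tumor 1 or 2 (adjusted p = 0.08199, 0.0887, 0.0688 and 0.0672). In both genes Ly6G tumor 3 held the highest Ly6G value. Both met the level rule through their Ly6C libraries.

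Cd14, the coreceptor for bacterial lipopolysaccharide, was the monocyte marker that went the other way, with 555, 309 and 502 FPKM in Ly6C and 1103, 1467 and 1703 in Ly6G (-1.66 ± 0.26, adjusted p = 0.0113). Fcgr1, the high-affinity Fc receptor of monocytes and macrophages, had 8.54, 4.38 and 10.6 and 2.203, 1.64 and 5.15 (1.17 ± 0.38, adjusted p = 0.0669). It did not pass, but it did without Ly6C tumor 2 (adjusted p = 0.0478) or Ly6G tumor 3 (0.0393). Csf1r, the receptor for the macrophage growth factor, had 12.6, 5.22 and 12.3 and 7.78, 8.46 and 16.2 (-0.11 ± 0.37, adjusted p = 0.849; 95% interval -0.99 to 0.77). Adgre1, which codes for F4/80, had 4.57, 2.19 and 5.45 and 3.28, 3.22 and 6.24 (-0.06 ± 0.31, adjusted p = 0.903; 95% interval -0.80 to 0.68). Both overlapped between labels, and 0 of 12 measured macrophage genes passed in either direction, against 8 higher in Ly6C and 0 higher in Ly6G on the pan-leukocyte scale.

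The summed levels of neutrophil, pan-leukocyte and monocyte genes were higher in Ly6G. The 15 neutrophil genes summed to 2375, 1512 and 2799 FPKM in Ly6C tumor and 4698, 8966 and 7764 in Ly6G tumor, against 53451 to 87885 in Ly6C spleen and 111221 to 144988 in Ly6G spleen. The 20 pan-leukocyte genes summed to 384, 196 and 395 in Ly6C tumor and 505, 817 and 869.8 in Ly6G tumor, and to 4414 to 5535 in spleen. Of these 20 genes 11 were higher in Ly6G and 0 in Ly6C. The 15 monocyte genes summed to 1087, 640.5 and 1099 in Ly6C tumor and 1394, 1767 and 2193 in Ly6G tumor, 1.89-fold higher in Ly6G by the means and so against the monocytic label, with Cd14 the gene of most FPKM, while the 15 macrophage genes summed to 217, 144 and 271 and 192, 113 and 341 and overlapped. Ptprc, which codes for the leukocyte antigen CD45, had 4.099, 2.59 and 4.59 FPKM in Ly6C and 7.66, 13.95 and 13.9 in Ly6G (-1.41 ± 0.26, adjusted p = 0.0149). In bulk libraries, fewer cells of a type and less RNA per cell cannot be told apart.

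Epithelial and fibroblast genes were present in all 6 tumor libraries and lower in spleen. The 9 epithelial genes summed to 861, 1019.7 and 753 FPKM in Ly6C tumor and 754, 697 and 446 in Ly6G tumor, against 0.39 to 1.23 in spleen, and 0 of the 2 measured passed. Nearly all of that sum was Krt8 and Krt18, keratins of simple epithelia. Krt8 had 664, 769.96 and 576 in Ly6C and 574, 519.96 and 356 in Ly6G, which did not overlap. Its difference did not pass (0.49 ± 0.20, adjusted p = 0.122). Epcam, Cdh1, Cldn4, Cldn7, Krt5 and Krt19 stayed under 1 FPKM in every tumor library. The 10 fibroblast genes summed to 247, 194 and 369 and 163, 143 and 342, against 4.35 to 16.6 in spleen, and 0 of 9 measured passed. Col1a1, a collagen of fibroblasts, had 5.57, 0.898 and 3.81 and 3.95, 1.44 and 27.9 (-0.85 ± 0.90, adjusted p = 0.527). The 10 T cell genes were all under 1 FPKM, and Ncr1 of natural killer cells and Siglech of plasmacytoid dendritic cells were listed at 0. The part of these summed levels in the differences below was not tested.

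Other cell types left little RNA in the tumor libraries, though some of their genes leaned to Ly6G. The 10 B cell genes summed to 5.34 to 8.76 FPKM in Ly6C tumor and 5.55 to 8.95 in Ly6G tumor, the 9 dendritic cell genes to 4.17 to 6.21 and 6.01 to 8.89, and the 7 eosinophil genes to 0.452 to 1.38 and 1.63 to 3.296. Ms4a1 and Cd22 of B cells, Flt3 and Xcr1 of dendritic cells and Epx and Prg2 of eosinophils were under 1 FPKM in each of them. The 8 endothelial genes summed to 32.1 to 42.5 and 33.4 to 53.5, of which most was Eng, and the 10 erythroid genes to 45.5 to 56.1 and 58.3 to 226. Eng differed by 0.04 between the labels. Tie1, which missed the level rule, had 0.568, 0.363 and 0.542 FPKM in Ly6C and 2.98, 0.747 and 4.33 in Ly6G. Vwf, Kdr, Tek and Emcn missed it too, and each was higher in every Ly6G tumor library than in any Ly6C one. The 8 genes of mast cells and basophils summed to 2.42 to 5.98 and 2.66 to 28.5, highest in Ly6G tumor 3. None of the 16 measured B cell, dendritic, endothelial, erythroid and mast cell genes passed in limma, but without Ly6G tumor 2 passed 4 of 5 erythroid, 2 of 3 endothelial and 1 of 3 mast cell genes, among them Hba-a1 (adjusted p = 0.0219), Cdh5 (0.0202), Pecam1 (0.0313) and Tpsb2 (0.0436), and without Ly6G tumor 1 passed 1 of 2 dendritic cell genes. As deposited, all 5 erythroid genes, all 3 mast cell genes and 2 of 3 endothelial genes had negative differences, lower in Ly6C. The melanocyte and natural killer cell lists had no measured member. Siglecf, a lectin of eosinophils and some neutrophils, had 0.439, 0.229 and 0.51998 FPKM in Ly6C and 1.07, 1.96 and 2.58 in Ly6G (-1.01 ± 0.21, adjusted p = 0.01899), and missed without Ly6C tumor 1, 2 or 3 or Ly6G tumor 2 (adjusted p = 0.0516 to 0.0553) and on the pan-leukocyte scale (adjusted p = 0.0972). It met the level rule only through its Ly6G libraries, and so did Itga2b. Of 3 measured megakaryocyte genes only the integrin gene Itga2b passed, with 0.521, 0.708 and 0.6299 and 1.36, 1.05 and 1.204 (-0.44 ± 0.11, adjusted p = 0.0316), but in none of the 6 fits without 1 library (adjusted p = 0.0542 to 0.0919), and its difference was 0.07 on the pan-leukocyte scale.

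**Figure D2:**
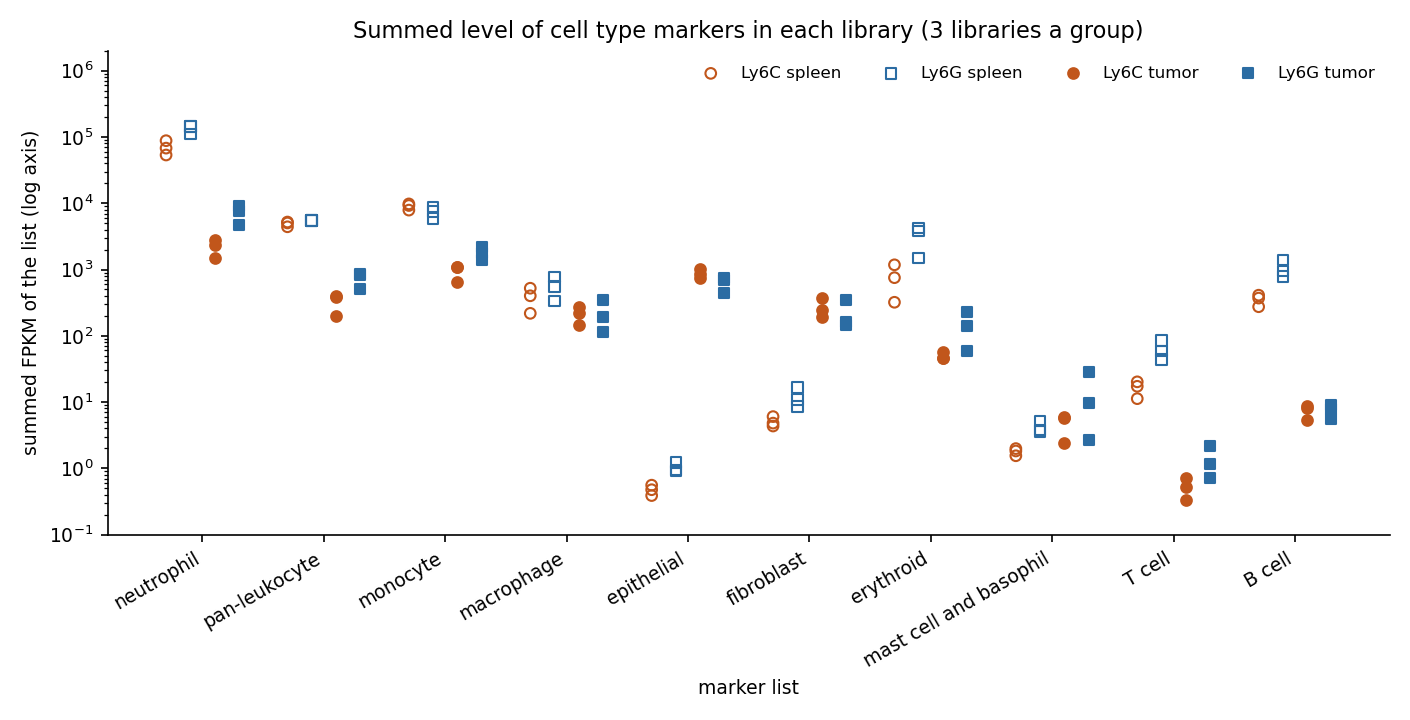
Summed FPKM (log axis) of cell type marker lists in each library, open symbols for spleen and filled symbols for tumor, circles for Ly6C and squares for Ly6G, 3 libraries a group. In tumor the neutrophil sums of Ly6G (4698 to 8966) lie above those of Ly6C (1512 to 2799), and the epithelial sums lie far above spleen in both labels.

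Cytokine and chemokine genes that passed were higher in Ly6G in all but 1 case. Of 18 measured cytokine genes 8 were higher in Ly6G and 0 in Ly6C (median -0.54), against 5 higher in Ly6C and 0 higher in Ly6G on the pan-leukocyte scale, where none of these 8 passed in either direction. Il1b, the inflammasome-processed interleukin-1 beta (ENSMUSG00000027398, chromosome 2, 129364570 to 129371139, minus strand), had 331, 206 and 285 FPKM in Ly6C and 719.9, 1247 and 831 in Ly6G. It was 3.405-fold higher in Ly6G by the means (-1.75 ± 0.25, adjusted p = 0.0102), with no overlap. Tnf, tumor necrosis factor, had 6.94, 6.11 and 6.66 and 28.6, 27.7 and 21.9 (-1.83 ± 0.12, adjusted p = 0.00464), again with no overlap. Il1a had 3.75, 4.15 and 4.65 and 14.2, 14.6 and 13.04 (-1.53 ± 0.10), and Il1rn, the natural antagonist of the interleukin-1 receptor, had 6.36, 4.07 and 6.21 and 15.96, 25.5 and 20.3 (-1.72 ± 0.21). Agonists and antagonist of interleukin-1 were thus higher in the same label. The growth factors Csf1, Csf2 and Csf3 did not pass, with differences of -0.29 ± 0.11, 0.55 ± 0.29 and 0.13 ± 0.29. Vegfa, the angiogenic factor, had 39.2, 38.1 and 51.4 and 58.8, 51.6 and 83.2 (-0.56 ± 0.20, adjusted p = 0.0833), and passed on the TPM scale (adjusted p = 0.0435).

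Among chemokines, which attract leukocytes along gradients, 3 of 7 CXC genes were higher in Ly6G and 0 in Ly6C, and 3 passed in every fit without 1 library, against 3 higher in Ly6C and 0 higher in Ly6G on the pan-leukocyte scale. Cxcl2 and Cxcl3 are ligands of Cxcr2. Cxcl2 had 438, 403 and 430.2 FPKM in Ly6C and 975, 1255 and 1041 in Ly6G, 424 ± 18.5 against 1090.3 ± 146 (SD, n = 3; -1.35 ± 0.12, adjusted p = 0.00472). Cxcl3 had 33.7, 21.9 and 32.97 and 82.2, 124 and 99.9 (-1.76 ± 0.21, adjusted p = 0.00826). Cxcl10, an interferon-induced attractant of T cells, had 10.3, 10.8 and 10.2 and 20.3, 16.5 and 16.4 (-0.70 ± 0.11, adjusted p = 0.0113), with a difference of 0.32 on the pan-leukocyte scale, where it did not pass. Cxcl1, another Cxcr2 ligand, had 308, 418 and 217 and 311, 292 and 167 and did not pass (0.29 ± 0.31, adjusted p = 0.5199). So ligands of the same receptor differed in whether they passed, and the difference between them was not tested.

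Of 9 measured CC chemokine genes 2 were higher in Ly6G and 1 in Ly6C, against 5 higher in Ly6C and 0 higher in Ly6G on the pan-leukocyte scale. Ccl3, an attractant of monocytes and neutrophils, had 45.5, 27.8 and 41.7 FPKM in Ly6C and 116, 164 and 149.6 in Ly6G, 3.73-fold higher in Ly6G by the means (-1.89 ± 0.21, adjusted p = 0.00722). Its neighbor Ccl4 had 22.4, 12.3 and 21.05 and 39.8, 61.6 and 62.4 (-1.52 ± 0.26, adjusted p = 0.0134). Ccl7, a ligand of the monocyte receptor Ccr2, had 104, 95.5 and 112 and 74.5, 61.6 and 85.1 and was higher in Ly6C (0.50 ± 0.14, adjusted p = 0.0415), but it missed in 5 of the 6 fits without 1 library (adjusted p = 0.0698 to 0.126), all but that without Ly6G tumor 3, and on the TPM scale (adjusted p = 0.0954). Ccl2, the main Ccr2 ligand, had 333, 426 and 322 and 317, 242 and 224 (0.47 ± 0.17, adjusted p = 0.0883), and passed only without Ly6G tumor 1 (adjusted p = 0.0469) among the fits without 1 library.

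Immunosuppressive effectors were higher in Ly6G for 10 of 17 measured genes and for 0 in Ly6C (median -0.87), against 3 higher in Ly6C and 0 higher in Ly6G on the pan-leukocyte scale. Without any 1 library 5 to 11 of them passed, fewest without Ly6C tumor 3. Nos2, inducible nitric oxide synthase (ENSMUSG00000020826, chromosome 11, 78920787 to 78960254, plus strand), had 18.1, 12.8 and 21.3 FPKM in Ly6C and 51.8, 56.8 and 84.3 in Ly6G, 17.4 ± 4.32 against 64.3 ± 17.5 (-1.82 ± 0.24, adjusted p = 0.00866). Cd274, which codes for PD-L1 (ENSMUSG00000016496, chromosome 19, 29367455 to 29388095, plus strand), had 8.49, 6.698 and 10.4 and 24.1, 35.6 and 35.8 (-1.78 ± 0.20, adjusted p = 0.00722). Neither overlapped, and both passed in every fit without 1 library and also without both number 3 libraries. The mitochondrial arginase gene Arg2 had 12.2, 8.33 and 12.9 and 31.5, 49.7 and 39.1 (-1.76 ± 0.21, adjusted p = 0.00826).

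Arg1, the cytosolic arginase used as a suppressor cell marker, did not follow Nos2 and Arg2. It had 28.8, 16.9 and 38.6 FPKM in Ly6C and 15.2, 5.26 and 23.8 in Ly6G, with overlapping groups (1.02 ± 0.52, adjusted p = 0.193; 95% interval -0.19 to 2.24). With the library number as a block in limma Arg1 passed, higher in Ly6C (adjusted p = 0.0353), but the labels do not say that the numbers pair the libraries. Ptgs2, the prostaglandin-forming cyclooxygenase, had 90.2, 78.6 and 79.5 and 136, 227 and 153 (-1.01 ± 0.19, adjusted p = 0.0157), but missed without Ly6C tumor 3 (adjusted p = 0.0563) and lay at 0.08 on the pan-leukocyte scale. Hmox1, heme oxygenase, had 89.01, 60.6 and 95.8 and 119, 149 and 189.9 (-0.89 ± 0.22, adjusted p = 0.0317). It passed without Ly6G tumor 1 but not without any of the other 5 libraries (adjusted p = 0.0593 to 0.0769), and its difference was 0.20 on the pan-leukocyte scale. The inhibitory receptors Pirb (-1.41 ± 0.24, adjusted p = 0.01303) and Lilrb4a (-1.26 ± 0.21, adjusted p = 0.0125) were higher in Ly6G. Acod1, which makes itaconate in activated myeloid cells, had 46.2, 26.4 and 37.9 and 109, 199 and 149.998 (-2.02 ± 0.27, adjusted p = 0.00901), and passed on the pan-leukocyte scale as well, at -0.94.

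**Figure D3:**
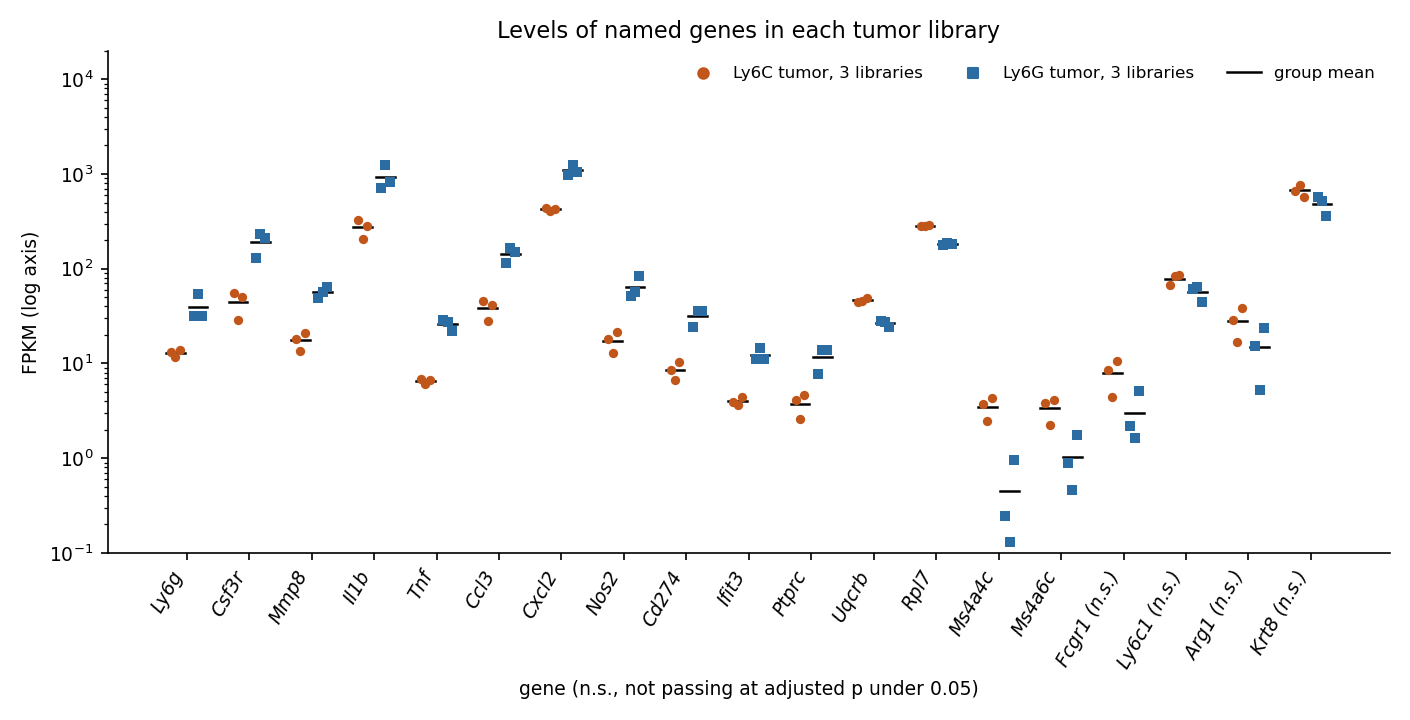
FPKM (log axis) of named genes in each of the 3 Ly6C (circles) and 3 Ly6G (squares) tumor libraries, with a bar at each group mean; n.s. marks genes that did not pass. Nos2, Cd274, Il1b, Tnf, Ccl3 and Cxcl2 separate the labels without overlap, with Ly6G above. Arg1 overlaps, and Krt8 lies higher in Ly6C without overlap but did not pass.

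Genes of the NF-kappaB, MAPK and ERK lists that passed as deposited were all higher in Ly6G. NF-kappaB factors drive inflammatory genes, and their targets include their own inhibitors. Of 17 measured genes of this pathway 10 were higher in Ly6G and 0 in Ly6C (median -0.48), against 2 higher in Ly6C and 0 higher in Ly6G on the pan-leukocyte scale. The count fell to 2 without Ly6C tumor 3 or without Ly6G tumor 2. Nfkbid, a nuclear inhibitor protein of the family (ENSMUSG00000036931, chromosome 7, 30421732 to 30428746, plus strand), had 22.05, 13.8 and 17.04 FPKM in Ly6C and 59.5, 79.1 and 66.6 in Ly6G (-1.91 ± 0.18, adjusted p = 0.00502). Birc3, a ubiquitin ligase of TNF receptor signalling, had 6.75, 6.44 and 6.78 and 12.6, 17.8 and 13.95 (-1.03 ± 0.13, adjusted p = 0.00848). Both passed in every fit without 1 library, and neither overlapped.

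Of 32 measured genes of the MAPK cascade, which relays growth and stress signals through kinases, 10 were higher in Ly6G and 0 in Ly6C (median -0.13), against 14 higher in Ly6C and 0 higher in Ly6G on the pan-leukocyte scale, a lower share on the Ly6C side than that of all genes. The median of the list lay 0.20 below that of all genes as deposited and 0.15 below it on the pan-leukocyte scale. The ERK kinase gene Mapk3 had 60.7, 62.2 and 54.4 FPKM in Ly6C and 62.1, 51.1 and 69.9 in Ly6G and did not pass as deposited (-0.04 ± 0.13, adjusted p = 0.863), though it passed higher in Ly6C on the pan-leukocyte scale (1.04). The p38 kinase Mapk14 had 6.53, 7.08 and 6.15 and 7.66, 8.16 and 7.43, which did not overlap, but it did not pass as deposited (-0.21 ± 0.09, adjusted p = 0.148). It passed in limma with a common sum without mitochondrial genes (-0.35, adjusted p = 0.0458). On the pan-leukocyte scale it lay at 0.76 and did not pass. Those that passed included Map3k5 and Map3k8. Map3k5, a stress-activated kinase also called ASK1, had 1.51, 1.05 and 1.67 and 3.53, 5.19 and 5.05 (-1.21 ± 0.16, adjusted p = 0.00943), and Map3k8, which links NF-kappaB to ERK in myeloid cells, had 5.16, 6.15 and 5.43 and 10.8, 12.8 and 14.3 (-1.05 ± 0.12, adjusted p = 0.00826).

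The list of genes that ERK signalling switches on had 31 measured members, of which 7 were higher in Ly6G and 0 in Ly6C (median -0.09). On the pan-leukocyte scale 16 were higher in Ly6C and 1 in Ly6G, with a share on the Ly6C side near the 59.3% of all genes. Its median lay 0.16 below that of all genes as deposited and 0.01 below it on the pan-leukocyte scale. Egr1, an immediate-early zinc finger factor, had 55.2, 34.9 and 37.5 FPKM in Ly6C and 175, 228 and 164 in Ly6G (-2.14 ± 0.20, adjusted p = 0.00502), and stayed higher in Ly6G on the pan-leukocyte scale at -1.06. The MAPK phosphatase gene Dusp1 had 427, 328 and 291 and 719, 847 and 756 (-1.16 ± 0.16, adjusted p = 0.00943). Fos and Jun, immediate-early partners in AP-1, did not pass (-0.37 ± 0.16, adjusted p = 0.142, and -0.20 ± 0.14, adjusted p = 0.324). Egr1, Dusp1, Fos and Jun are also genes that rise when tissue is dissociated, and the 12 genes of a dissociation list summed to 3252, 2691 and 2779 FPKM in Ly6C and 3895, 4231 and 4389 in Ly6G, with 4 passing higher in Ly6G. Their part in the ERK response was not tested.

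Promoters were read for cytokine, chemokine and NF-kappaB genes that moved together, to show what the stretch before each start holds. Each line gives 250 bases upstream of a RefSeq start (GRCm38.p6), 5′ to 3′ on the gene's strand, with motif matches in capitals.
Cxcl3 (chr5:90785851-90786100, plus strand): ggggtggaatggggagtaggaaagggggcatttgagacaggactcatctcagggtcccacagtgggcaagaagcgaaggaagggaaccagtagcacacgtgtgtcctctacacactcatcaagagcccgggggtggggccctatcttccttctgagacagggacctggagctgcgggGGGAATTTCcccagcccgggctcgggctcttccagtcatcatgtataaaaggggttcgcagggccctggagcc
Nfkbid, second of 3 starts (chr7:30422156-30422405, plus strand): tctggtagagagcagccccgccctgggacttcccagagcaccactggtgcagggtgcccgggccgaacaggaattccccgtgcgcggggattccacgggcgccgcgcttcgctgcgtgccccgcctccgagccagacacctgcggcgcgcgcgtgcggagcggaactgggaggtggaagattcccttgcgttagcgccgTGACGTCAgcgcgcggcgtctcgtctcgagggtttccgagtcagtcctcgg
Ccl3 (chr11:83649379-83649628, minus strand): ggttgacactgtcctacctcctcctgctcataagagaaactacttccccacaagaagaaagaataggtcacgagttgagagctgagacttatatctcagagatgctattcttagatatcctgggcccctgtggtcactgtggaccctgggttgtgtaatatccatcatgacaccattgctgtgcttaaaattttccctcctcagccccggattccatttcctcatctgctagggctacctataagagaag
Tnf (chr17:35202008-35202257, minus strand): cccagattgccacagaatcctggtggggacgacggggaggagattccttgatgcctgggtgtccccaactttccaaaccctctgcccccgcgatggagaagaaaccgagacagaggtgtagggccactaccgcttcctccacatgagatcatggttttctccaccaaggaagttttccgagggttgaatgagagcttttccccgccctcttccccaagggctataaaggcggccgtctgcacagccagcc
Windows of 300 bases (250 before to 50 after the start) were searched on both strands for TGAGTCA (the AP-1 site), TGACGTCA (the CRE), GGGANTTTC (an NF-kappaB site), ACGTGC (the hypoxia element) and the SRF CArG box. Cxcl3 held GGGANTTTC 73 bases before its start, and Nfkbid held the CRE 51 bases before its second start and no match at the others. Only these strings were counted, and other forms of the sites were not searched. The similar gggacttccc in the printed Nfkbid sequence was therefore left in lower case. Ccl3 and Tnf held no match in these windows.

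The same windows were searched for the same strings in every promoter of the table, as a description with no test. GGGANTTTC occurred in 1.32% of 1211 promoters of genes higher in Ly6G, 1.17% of 1115 promoters of genes higher in Ly6C, 0.880% of 10791 promoters of all genes measured and 1.11% of all 32851 promoters of the table. The AP-1 string occurred in 5.62%, 3.59%, 3.76% and 5.20% of these sets, the CRE in 2.48%, 3.32%, 3.02% and 1.79%, the hypoxia string in 7.43%, 7.62%, 8.22% and 5.91%, and the CArG box in 1.24%, 1.26%, 1.32% and 1.63%. Against all genes measured, genes higher in Ly6G thus had lower shares of the CRE, the hypoxia string and the CArG box. Their shares of the AP-1 string and GGGANTTTC were higher. Genes higher in Ly6C deviated the same way for the hypoxia string, the CArG box and GGGANTTTC, and the other way for the CRE and the AP-1 string. GGGANTTTC stood in 16 promoters of genes higher in Ly6G and 13 of genes higher in Ly6C. Some genes have several promoters, and the 1211 promoters belong to 911 genes.

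Among receptors by which phagocytes sense chemoattractants, microbes and antibodies, those that passed were higher in Ly6G. Of 25 measured chemotactic and adhesion receptors 15 were higher in Ly6G and 0 in Ly6C (median -1.32), against 3 higher in Ly6C and 1 higher in Ly6G on the pan-leukocyte scale. Fpr1, the formyl peptide receptor, had 9.65, 6.703 and 10.6 FPKM in Ly6C and 22.2, 35.8 and 35.5 in Ly6G (-1.68 ± 0.23, adjusted p = 0.00975), and Cxcr4, the marrow-homing receptor, had 12.3, 6.897 and 11.98 and 23.1, 36.5 and 37.5 (-1.56 ± 0.26, adjusted p = 0.0125). The groups did not overlap for either gene. The integrin chain Itgam, which codes for CD11b, had 0.347, 1.08 and 3.27 and 2.18, 2.78 and 2.67 and did not pass (-0.63 ± 0.38, adjusted p = 0.2704), although CD11b is a defining surface protein of myeloid-derived suppressor cells.

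Of 22 pattern and Fc receptor genes 11 were higher in Ly6G and 0 in Ly6C (median -1.14), against 4 higher in Ly6C and 0 higher in Ly6G on the pan-leukocyte scale. Syk, the kinase that signals for many of these receptors, had 7.15, 4.05 and 7.36 FPKM in Ly6C and 14.9, 26.6 and 25.98 in Ly6G (-1.70 ± 0.28, adjusted p = 0.0123). Clec4e, the lectin receptor Mincle, had 6.98, 8.07 and 7.84 and 18.9, 29.03 and 23.1 (-1.50 ± 0.16, adjusted p = 0.00605). Of 7 NADPH oxidase genes, whose product makes superoxide, 3 were higher in Ly6G and 0 in Ly6C, against 1 higher in Ly6C and 0 higher in Ly6G on the pan-leukocyte scale. The cytosolic subunit gene Ncf1 had 9.66, 6.02 and 8.03 and 26.01, 31.02 and 27.1 (-1.72 ± 0.16, adjusted p = 0.00502) and passed in every fit without 1 library. The membrane subunits Cybb (-0.17 ± 0.19, adjusted p = 0.541) and Cyba (-0.11 ± 0.14, adjusted p = 0.625) did not pass.

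Among the functional lists, the interferon response had the highest share of genes passing on the Ly6G side. Of 23 measured, 17 were higher in Ly6G and 0 in Ly6C (median -0.76), against 2 higher in Ly6C and 0 higher in Ly6G on the pan-leukocyte scale, and 10 to 14 passed without any 1 library, fewest without Ly6C tumor 3. Ifit3, an antiviral protein, had 3.96, 3.64 and 4.44 FPKM in Ly6C and 11.3, 14.6 and 11.2 in Ly6G (-1.41 ± 0.13, adjusted p = 0.00472), with groups that did not overlap, and it passed also without both number 3 libraries. Rsad2, which codes for viperin, had 6.29, 4.38 and 6.19 and 13.5, 17.95 and 17.9 (-1.40 ± 0.16, adjusted p = 0.00821). Irf1, a transcription factor of this response, did not pass (0.13 ± 0.42, adjusted p = 0.849). Of 8 measured genes of the class II presentation list only the costimulatory ligand Cd80 passed, with 1.52, 1.103 and 1.67 and 3.85, 6.75 and 4.94 (-1.33 ± 0.19, adjusted p = 0.0101), while 7 passed higher in Ly6C and 0 in Ly6G on the pan-leukocyte scale.

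Ribosomal and nuclear respiratory chain genes gave the Ly6C side. Of 30 cytosolic ribosomal protein genes 28 were higher in Ly6C and 0 in Ly6G (median 0.58), and of 27 nuclear genes of the respiratory chain 22 were higher in Ly6C and 0 in Ly6G (median 0.50). The direction held on all scales tried, but the counts did not. On the TPM scale 10 and 7 passed, with quantile normalization 3 and 17, and without Ly6C tumor 3 just 6 and 2. Rpl7, a protein of the large subunit, had 279.5, 285 and 292 FPKM in Ly6C and 180.2, 187 and 183 in Ly6G (0.64 ± 0.08, adjusted p = 0.00869), and Uqcrb, a subunit of complex III, had 44.3, 45.1 and 49.3 and 28.4, 27.2 and 24.4 (0.77 ± 0.10, adjusted p = 0.00833). Neither overlapped, and both passed in every fit without 1 library. The steps were small: Uqcrb was 1.73-fold and Rpl7 1.56-fold higher in Ly6C by the means. Rps23 had 486, 544 and 511 and 341, 360.1 and 266 (0.68 ± 0.14, adjusted p = 0.0172), and missed without Ly6C tumor 2 (0.0556) or 3 (0.0595). The 13 mitochondrially encoded genes of the same chain did not pass in either direction (median -0.46).

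Of 26 cell cycle genes 12 were higher in Ly6C and 1 in Ly6G (median 0.40), but 1 and 1 on the TPM scale, 0 and 1 with a common sum without mitochondrial genes, and 1 in all without Ly6C tumor 3. Ccnb1, the mitotic cyclin B1, had 5.199, 5.79 and 6.26 FPKM in Ly6C and 2.82, 4.27 and 3.28 in Ly6G (0.61 ± 0.14, adjusted p = 0.0249), and missed without Ly6C tumor 2 or 3 or Ly6G tumor 1 or 3 (adjusted p = 0.05999 to 0.086005). Cdkn1a, the cyclin-dependent kinase inhibitor p21, was the member higher in Ly6G, with 67.6, 42.5 and 60.5 and 136, 153 and 162 (-1.41 ± 0.18, adjusted p = 0.00848). It passed in every fit without 1 library. Prdx1, a peroxide-removing enzyme, had 65.4, 73.4 and 75.9 and 46.6, 51.0 and 45.02 (0.58 ± 0.10, adjusted p = 0.0132), led the 5 of 20 oxidative stress genes that were higher in Ly6C (1 was higher in Ly6G, and the TPM scale gave 1 and 1), and missed without Ly6C tumor 3 (0.0528).

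Glycolysis genes passed on both sides and hypoxia genes on the Ly6G side only. Their counts as deposited are to be read against the 12.3% and 10.6% of all genes that passed higher in Ly6C and in Ly6G. Of 22 glycolysis identifiers (21 genes) 3 were higher in Ly6C and 4 in Ly6G (0 and 5 on the TPM scale, 14 and 0 on the pan-leukocyte scale). Slc2a3, the glucose transporter GLUT3, had 14.9, 9.19 and 15.2 FPKM in Ly6C and 33.03, 57.1 and 57.2 in Ly6G (-1.82 ± 0.27, adjusted p = 0.0107), and Hk3, the hexokinase of myeloid cells, had 7.32, 4.71 and 8.59 and 17.1, 23.7 and 27.8 (-1.61 ± 0.24, adjusted p = 0.0108). Both steps stand at the entry of glucose into the pathway. Of 23 hypoxia genes 5 were higher in Ly6G and 0 in Ly6C (median -0.13), against 12 higher in Ly6C and 0 higher in Ly6G on the pan-leukocyte scale, led by Pfkfb3, a regulator of glycolytic flux, with 9.36, 11.5 and 9.78 and 20.2, 25.7 and 29.1 (-1.20 ± 0.15, adjusted p = 0.00826).

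Stress, lipid and matrix lists held passing genes on both sides, in the matrix list at shares close to the 12.3% and 10.6% of all genes. Ppp1r15a, which ends the integrated stress response, had 35.8, 27.3 and 28.8 FPKM in Ly6C and 62.7, 65.1 and 62.4 in Ly6G (-1.04 ± 0.12, adjusted p = 0.00736; 0.04 on the pan-leukocyte scale, where it did not pass). In its list of 23 identifiers (22 genes) 4 were higher in Ly6C and 6 in Ly6G (0 and 6 on the TPM scale, 16 and 0 on the pan-leukocyte scale). Of 15 measured heat shock genes only Hsp90ab1, a cytosolic chaperone, passed, with 1653, 1776 and 1590.2 FPKM in Ly6C and 1332, 1289.6 and 1014 in Ly6G (0.47 ± 0.13, adjusted p = 0.0446). It missed in all 6 fits without 1 library (adjusted p = 0.0559 to 0.127), and its list had 0 on the TPM scale and 12 higher in Ly6C on the pan-leukocyte scale. Of 20 lipid and lysosome genes 4 were higher in Ly6C and 2 in Ly6G (0 and 2 on the TPM scale, 14 and 0 on the pan-leukocyte scale), with the cholesterol exporter Abca1 at 2.75, 1.76 and 3.73 and 5.67, 9.16 and 11.3 (-1.36 ± 0.27, adjusted p = 0.0173; adjusted p = 0.0504 without Ly6G tumor 2). Of 25 matrix and angiogenesis genes 3 passed on each side (0 and 4, and 13 and 0, on these scales). Spp1, which codes for osteopontin, had 892, 991 and 1109 and 659, 733 and 743 (0.48 ± 0.12, adjusted p = 0.0289). It was among the most abundant genes of both labels, but its difference missed in 4 of the 6 fits without 1 library (adjusted p = 0.06299 to 0.0957), and passed without Ly6C tumor 1 or Ly6G tumor 3.

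**Figure D4:**
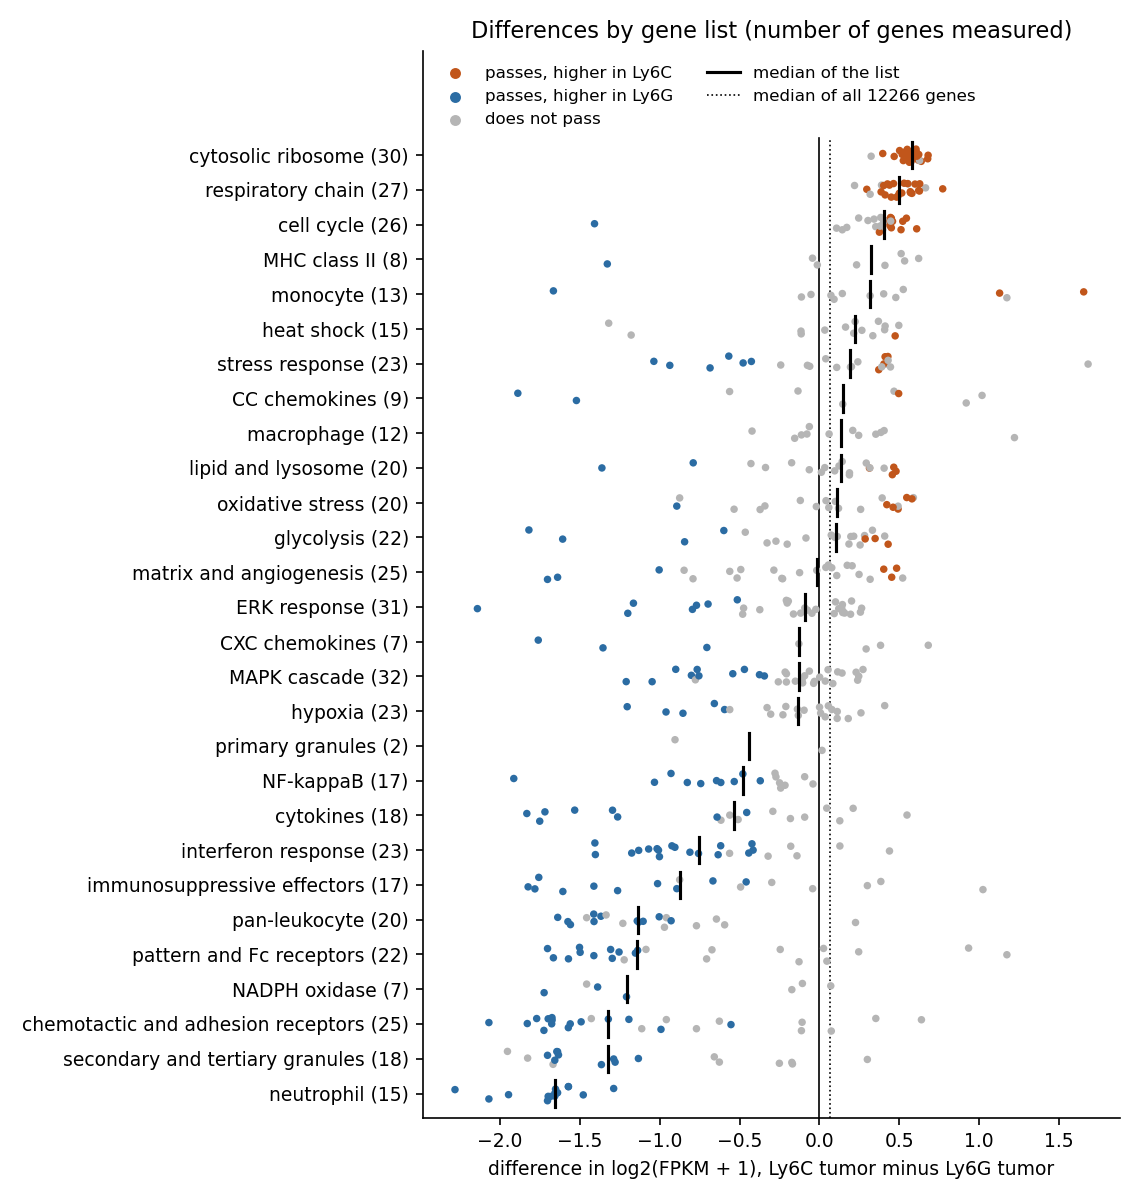
Difference in log2(FPKM + 1), Ly6C minus Ly6G tumor, of each gene in the lists described here (1 point a gene, colored where it passed), with a black bar at the median of each list and a dotted line at the median of all 12266 genes, 0.07. The neutrophil list lies at -1.66 and the cytosolic ribosome at 0.58.

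The largest differences by the naming rule included transcripts whose counting is uncertain. On the Ly6C side, by size, stood Snord58b, Tmem254c, Scamp4, Ms4a4c, Leng1, Mgat1, Ms4a6c, H1fx, Rmrp and Gstp2. Mgat1, which starts complex N-glycan synthesis in the Golgi, had 12.6, 10.03 and 11.6 FPKM in Ly6C and 4.41, 3.02 and 5.35 in Ly6G (1.26 ± 0.18, adjusted p = 0.0102; ENSMUSG00000020346, chromosome 11, 49244191 to 49263030, plus strand), and passed in every fit without 1 library. Of the other genes of this list only Ms4a4c did so as well. Snord58b, a small nucleolar RNA of 66 bases inside Rpl17, had 29.1, 461 and 459.8 and 2.74, 27.3 and 9.004 (4.19 ± 1.18, adjusted p = 0.04404), so Ly6C tumor 1 lay close to Ly6G tumor 2, and the FPKM of so short a gene is unstable. Tmem254c was listed at 0 in Ly6G tumor 2 and 3 and at 5.25, 4.78 and 5.34 in Ly6C. Scamp4 and Leng1 overlap other genes on their strand, and Leng1 and H1fx, like Ms4a4c, met the level rule only through their Ly6C libraries.

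On the Ly6G side, by size, stood Mxd1, Hgs, Mir7087, Egr1, Kctd12, Sh2d3c, Csf3r, Cd300lf, Rab44 and Acod1. Cd300lf, an inhibitory receptor of myeloid cells, had 15.6, 9.75 and 14.6 FPKM in Ly6C and 49.05, 56.05 and 71.1 in Ly6G (-2.07 ± 0.20, adjusted p = 0.00532), and Rab44, a large Rab GTPase, had 19.5, 11.4 and 13.4 and 50.5, 70.8 and 65.7 (-2.02 ± 0.21, adjusted p = 0.00601). Sh2d3c, a signalling adaptor, had 16.3, 8.74 and 13.5 and 41.8, 61.4 and 72.4 (-2.11 ± 0.26, adjusted p = 0.00832), and Kctd12 had 7.199, 9.43 and 15.9 and 36.7, 53.8 and 56.8 (-2.12 ± 0.28, adjusted p = 0.00925). These 4 passed in every fit without 1 library and on the pan-leukocyte scale. Mir7087, a precursor of 70 bases inside Sidt2, and Hgs, which shares its locus and symbol with a second identifier, cannot be told apart from the genes that overlap them.

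As a further scale, added after the data were seen, each gene was divided by the summed neutrophil genes of its own library and multiplied by 1000. That sum was 3.20-fold higher in Ly6G by the means, so most genes move to the Ly6C side on it. S100a8 and S100a9 made most of that sum, at 282 ± 14.8 and 526 ± 25.04 per 1000 in Ly6C and 279 ± 7.397 and 518 ± 22.8 in Ly6G. Over all genes this ratio was higher in Ly6C without overlap for 10640 (86.7%) and higher in Ly6G for 36 (0.293%), so a ratio that overlaps between the labels was the less common result. The median gene had a mean ratio 3.36-fold higher in Ly6C, with a lower quartile of 2.69 and an upper one of 3.99. Of the 1295 genes higher in Ly6G, 713 had overlapping ratios, 547 had a higher ratio in Ly6C and 35 in Ly6G. All 1512 genes higher in Ly6C had a higher ratio in Ly6C. With 3 libraries a label an exact permutation test cannot go below p = 0.10, so none is given.

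The ratios of inflammatory and suppressive genes to the neutrophil sum overlapped between the labels for most of those named here. Il1b stood at 139, 136 and 102 per 1000 in Ly6C and 153, 139 and 107 in Ly6G, Nos2 at 7.62, 8.45 and 7.62 and 11.02, 6.34 and 10.9, and Cd274 at 3.57, 4.43 and 3.72 and 5.14, 3.97 and 4.61. Ccl3 stood at 17.5 ± 2.27 and 20.7 ± 3.42 (SD, n = 3), Tnf at 3.11 ± 0.847 and 4.0001 ± 1.81, Arg2 at 5.09 ± 0.456 and 5.76 ± 0.856, and Ifit3 at 1.89 ± 0.453 and 1.82 ± 0.509. All of these overlapped. So did all 8 cytokine, 3 CXC and 2 CC chemokine genes that were higher in Ly6G, and 12 of 17 such interferon-response genes, 7 of 10 immunosuppressive and 6 of 10 NF-kappaB genes, the others being higher in Ly6C. Csf3r (20.1 ± 2.72 and 26.7 ± 0.908), Cxcr2 (1.76 ± 0.261 and 2.11 ± 0.129) and Slc2a3 (5.93 ± 0.456 and 6.92 ± 0.506) kept a higher ratio in Ly6G without overlap.

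Monocyte, macrophage and tumor-tissue genes had a higher ratio in Ly6C, as most genes did, and a few stood out. Arg1 stood at 12.1, 11.2 and 13.8 per 1000 in Ly6C and 3.24, 0.586 and 3.06 in Ly6G, 5.38-fold higher in Ly6C. Fcgr1 stood at 3.43 ± 0.474 and 0.439 ± 0.242 (7.82-fold) and Ly6c1 at 37.97 ± 14.6 and 8.62 ± 3.75 (4.41-fold). None of these overlapped, and neither did Csf1r (2.81-fold), Adgre1 (2.86-fold), Hmox1 (1.68-fold), Vegfa (2.07-fold), Tgfb1 (2.91-fold) or Krt8 (4.402-fold). All 12 macrophage genes and 12 of 13 monocyte genes had a higher ratio in Ly6C, Cd14 being the exception. A higher ratio in Ly6C was the rule, at 86.7% of all genes and a median of 3.36-fold, so Csf1r, Adgre1, Hmox1, Vegfa and Tgfb1 lay below the median gene, while Fcgr1 and Arg1 lay above the 95th percentile of 4.81. The part of other cells in these ratios was not tested.

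Against the pan-leukocyte sum, the neutrophil sum stood at 6.19, 7.71 and 7.09 in Ly6C and 9.302, 10.98 and 8.93 in Ly6G, 1.39-fold higher in Ly6G without overlap. The monocyte sum stood at 2.83, 3.26 and 2.78 and 2.76, 2.16 and 2.52, 1.19-fold higher in Ly6C, less than the median gene. Without Cd14, left out after its value was seen, it stood at 1.39, 1.69 and 1.51 and 0.576, 0.367 and 0.563, 3.04-fold higher in Ly6C, and the macrophage sum 2.18-fold higher. The epithelial and fibroblast sums were 3.27-fold and 2.88-fold higher in Ly6C on the same basis. Over all 12266 genes the median of this ratio of means was 2.49-fold higher in Ly6C.

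**Figure D5:**
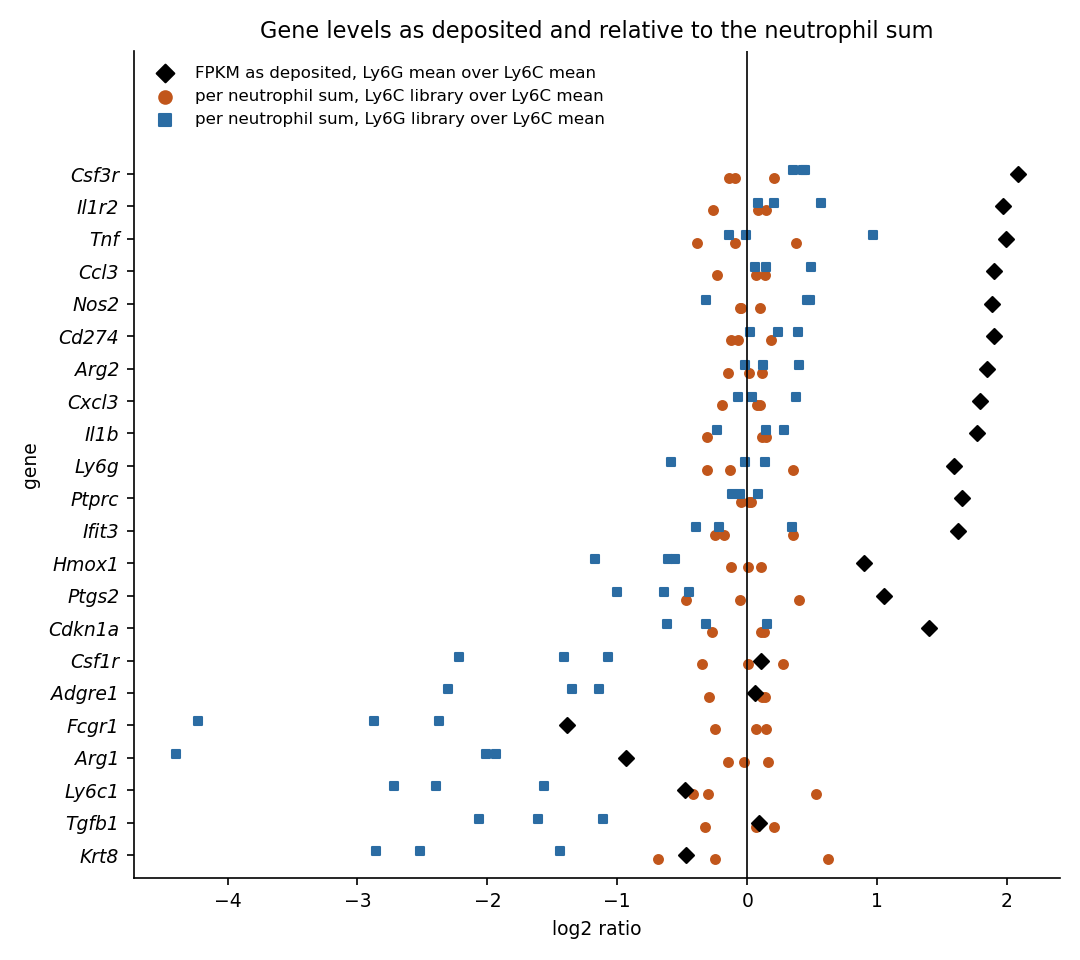
Log2 ratios of genes to their Ly6C tumor mean, for the level per summed neutrophil genes in each of 3 Ly6C (circles) and 3 Ly6G (squares) tumor libraries and, as a diamond, for the Ly6G over Ly6C ratio of mean FPKM as deposited. Il1b, Nos2, Cd274 and Ptprc overlap between the labels per neutrophil sum although their diamonds lie to the right of 0, Csf3r is higher in Ly6G, and Arg1, Fcgr1 and Ly6c1 are higher in Ly6C.

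The difference between the labels was not the same in tumor as in spleen. Of the 12266 genes, 9689 also met the level rule in spleen. The tumor difference minus the spleen difference, which uses the same tumor libraries, passed for 2662 genes (21.7%), with 680 (5.54%) positive and 1982 (16.2%) negative, and 1119 of these also passed within tumor. The excess of negative differences rested on the scale. Of the passing genes 25.5% were positive as deposited, 50.4% with median-of-ratios factors, 53.0% with quantile normalization and 4.27% on the TPM scale. The pan-leukocyte scale was not fitted for this difference. Across genes, which are not independent replicates, the tumor and spleen differences had a Pearson's r of 0.15 and a Spearman's rho of 0.02. Ms4a4c was higher in Ly6C in both tissues, by 1.65 in tumor and 1.68 in spleen. Ccl3 differed by -1.89 in tumor and by 1.58 in spleen, opposite directions (-3.47 ± 0.36 for the difference of differences, adjusted p = 0.000309).

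Fn1, fibronectin, a gene of classical monocytes, had 54.04, 39.9 and 62.9 FPKM in Ly6C tumor and 54.3, 12.5 and 98.8 in Ly6G tumor, with overlapping groups, but 131, 226 and 81.9 in Ly6C spleen and 4.79, 3.45 and 3.26 in Ly6G spleen (-4.50 ± 0.83, adjusted p = 0.00353). F13a1, a coagulation factor subunit of monocytes, differed by 0.40 in tumor and 4.04 in spleen (-3.64 ± 0.51, adjusted p = 0.00102). Neither gene passed within tumor.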

How the data were processed

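Per the labels' protocols, total RNA was purified on columns and read as paired ends on an Illumina instrument. GRCm38, featureCounts 1.5.0-p3 and HISAT2 2.0.5 appear in the submitters' processing notes. The authors deposited FPKM per gene and library, and the sources used here do not name the tool, annotation or scaling of that step. The matrix held 54674 entries, and 570 assembled loci that name no gene (0.496% to 0.761% of FPKM in the tumor libraries) were left out. Coordinates and symbols came from GENCODE M21 (GRCm38), with a second list of gene names for identifiers it lacked. Neither source named 66 identifiers. Of low values, 28.2% to 32.9% lay within 0.05 of a whole step, so counts were not recovered, depth is unknown and counting error has no interval here.

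The 6 tumor libraries were fitted with limma 3.58.1 (R 4.3.3) on log2(FPKM + 1), with a trend of variance on mean (4 residual and 3.04 prior degrees of freedom), two-sided and with Benjamini-Hochberg adjustment over 12266 genes. The difference between tumor and spleen was fitted on 12 libraries (8 residual and 3.57 prior). The fit was tested on simulated data with 200 genes changed, independent normal noise and no shift of scale between the labels. It recovered 73.5% to 80.5% of them at a log2 change of 1 and 94.5% to 96% at 2. False calls made up 4.73% to 5.77% and 4.06% to 7.25% of those passing. More genes passed in the real data, at smaller steps, so these shares need not hold there. Sums, ratios and figures used Python 3.11.15 and pandas 2.3.3. Named genes were the 10 highest and 10 lowest passing differences without overlap (predicted genes, pseudogenes and receptor segments excluded), the passing extremes of 24 functional lists, a fixed set with Ly6g, Arg1, Nos2 and Krt8, the 5 highest and 5 lowest tumor-spleen differences, and up to 3 genes of each of 18 marker lists by level. Other list members were picked as examples after their values were seen, and some are not reported here. The genes and lists were chosen with earlier results of these data known, and ratios within a library were added after the data were seen. Alternatives were other pseudocounts (0.1 and 5), filters, scales, variance models, a replicate block and leaving out libraries.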

Additional observations from a re-analysis of the deposited data

Results flagged for a closer look

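The difference between Ly6C and Ly6G itself differed between tumor and spleen for 2662 genes in limma (tumor difference minus spleen difference, n = 3 per group). The 5 highest were 3.16 ± 0.52 for Ly6a (Sca-1), 3.01 ± 0.37 for Igfbp6, 2.86 ± 0.77 for Snord14d, 2.38 ± 0.42 for the metallothionein Mt2 and 2.36 ± 0.28 for the GTPase Rhoc. In spleen these genes lay at -2.22, -2.75, -1.69, -1.89 and -1.99, lower in Ly6C, and in tumor at 0.94, 0.26, 1.17, 0.49 and 0.37, of which only Rhoc passed. The 5 lowest were -5.98 ± 0.70 for Hgs, -4.50 ± 0.83 for fibronectin (Fn1), -3.72 ± 0.45 for coagulation factor X (F10), -3.64 ± 0.51 for F13a1 and -3.47 ± 0.36 for the chemokine gene Ccl3. In spleen these lay at 3.77, 4.82, 2.56, 4.04 and 1.58, higher in Ly6C, and in tumor at -2.22, 0.32, -1.16, 0.40 and -1.89, where Hgs, F10 and Ccl3 were higher in Ly6G. Snord14d lies inside Hspa8 and Hgs shares its locus with a second identifier, so their values are uncertain.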

How the results depend on the processing

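The count of 2807 passing genes (1512 higher in Ly6C, 1295 in Ly6G) moved most with the scale, the filter and single libraries. It was 7305 (7269 and 36) on the pan-leukocyte scale, 1646 (253 higher in Ly6C) on the TPM scale and 1454 (652 and 802) with no filter. The Ly6C side was 426 with a common sum without mitochondrial genes and 899 in a fit of all 12 libraries. Without both number 3 libraries 61 genes passed (5 and 56), and 9 of the 62 named genes that passed remained. Without any 1 library 751 to 2011 passed, 172 to 928 higher in Ly6C and 579 to 1083 higher in Ly6G, each lowest without Ly6C tumor 3. Of the 62 named passing genes 33 passed in all 6 of these fits, and of the 12266 genes 675. The count of 2662 for the tumor-spleen difference was 4398 on the TPM scale, 4776 with a common sum without mitochondrial genes, 4174 with array weights, 1347 without both number 3 libraries and 1916 to 2811 without any 1 library. On the pan-leukocyte scale the difference turned to 0.20 for Hmox1, 0.0724 for Itga2b, 0.0384 for Ppp1r15a, 0.30 for Junb, 0.0778 for Ptgs2, 0.32 for Cxcl10 and 1.04 for Mapk3, and of these only Mapk3 passed there. In all 25 of 132 named or example genes changed sign on that scale, 18 of them passing on neither, and 24 of the 25 lay below the median of all genes there, 0.94. Beyond the scalings and left-out libraries, the cause of a change in count was not tested. The labels do not say whether the replicate numbers pair the libraries. Deviations from the group means correlated at -0.097, 0.128 and 0.299 for same-numbered libraries and at -0.426 to 0.370 for others, which does not settle it. With the replicate block 2441 genes passed (2471 for the tumor-spleen difference), among them Arg1 (adjusted p = 0.0353), 3 erythroid genes and 1 endothelial gene. Depth is unknown, so a gene listed at 0 cannot be told from one below detection.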
